A study of Mus musculus with 12 samples.

Results

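The genes of cholesterol synthesis, uptake and sterol sensing were followed through the liver and lung transcriptomes of newborn Man1a2 WT and null mice. The 36 genes were chosen by symbol for their known function, with genotype results of these same libraries already known, so counts over them describe these libraries and are no independent evidence of a direction. All 36 were among the 24421 gene symbols counted. They comprise 8 enzymes of the mevalonate steps, 12 enzymes of the squalene and sterol steps, 5 genes of sterol sensing and its control, 3 carriers of cholesterol within the cell, 4 exporters, 2 esterifying enzymes and both liver X receptors (LXR).

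Pups were bred from Man1a2+/- parents carrying the Man1a2tm1.1Ahe allele and were dissected shortly after birth. WT pups were Man1a2+/+, and null pups were Man1a2-/-, which lack exon 2 of the gene in every tissue. Poly(A) RNA of whole liver and whole lung from 3 pups per genotype gave 12 libraries, 3 for each tissue, and the labels do not say which pup gave which. Man1a2 encodes a Golgi mannosidase that trims N-glycans, and null pups are known to die of respiratory failure with unexpanded alveoli. In whole tissue, fewer cells of a type and less RNA per cell cannot be told apart.

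Cholesterol is built from acetyl-CoA through mevalonate, farnesyl diphosphate and squalene, and a long series of steps then turns lanosterol into cholesterol. When sterols in the endoplasmic reticulum are low, the escort Scap carries the transcription factor SREBP2, encoded by Srebf2, to the Golgi, where it is cleaved and released to switch on most genes of synthesis and uptake. When sterols are high, the Insig proteins hold Scap back, and oxysterols activate LXR, which switches on exporters such as Abca1 and Abcg1 and the ubiquitin ligase Mylip. Liver makes and secretes much of the body's cholesterol, and lung uses it in surfactant.

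Of the 36 genes, 29 had an entry in the RefSeq promoter table (build GRCm38.p6), 37 windows of 300 bases in all, of which 250 lie before the gene start. Entries were missing for Fdps, Fdft1, Sqle, Stard4, Npc1, Abcg1 and Soat2. The sterol regulatory element TCACNCCAC, searched on both strands, was found in 1 of the 37 windows, that of Hmgcs1, and in 1.24% of all 32851 windows. The letters CCAAT, the core of the site of the factor NF-Y, were found on either strand in 24 of the 37 windows (64.9%) and in 37.4% of all windows. AGGTCA, the core of sites bound by nuclear receptors, was found in 5 of the 37 windows, of 3 genes, and in 16.3% of all windows. These matches describe letters and not occupied sites. The motifs share no letters in the Hmgcs1 window.

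Shown here, 5′ to 3′ on the strand of the gene, are the bases before the start of 4 genes. Hmgcs1 held the only match to the sterol regulatory element in the windows searched, and Insig1 had the largest difference of the 36 in liver. Nsdhl rose in liver with all libraries and fell in lung once a library that stood apart was left out. Mylip rose in lung without that same library. Capitals mark the sterol regulatory element and CCAAT, the latter read as ATTGG where it lies on the other strand. The positions are chr13:119690101-119690350 (plus strand), chr5:28071162-28071362 (plus strand), chrX:72918271-72918520 (plus strand) and chr13:45389492-45389741 (plus strand).
Hmgcs1: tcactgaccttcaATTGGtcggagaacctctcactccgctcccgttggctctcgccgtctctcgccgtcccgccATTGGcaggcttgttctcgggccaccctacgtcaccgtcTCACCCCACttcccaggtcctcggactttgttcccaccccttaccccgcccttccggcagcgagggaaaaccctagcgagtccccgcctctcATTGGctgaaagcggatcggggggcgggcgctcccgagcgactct
Insig1: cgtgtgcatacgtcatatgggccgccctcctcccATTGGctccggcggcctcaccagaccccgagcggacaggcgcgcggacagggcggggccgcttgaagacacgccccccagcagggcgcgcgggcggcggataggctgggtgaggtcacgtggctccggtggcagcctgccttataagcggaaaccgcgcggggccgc
Nsdhl: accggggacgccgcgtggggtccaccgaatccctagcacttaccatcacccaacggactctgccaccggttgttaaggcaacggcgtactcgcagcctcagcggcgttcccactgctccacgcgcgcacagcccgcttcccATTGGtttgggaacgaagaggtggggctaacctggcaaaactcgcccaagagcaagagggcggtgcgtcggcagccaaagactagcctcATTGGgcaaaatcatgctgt
Mylip: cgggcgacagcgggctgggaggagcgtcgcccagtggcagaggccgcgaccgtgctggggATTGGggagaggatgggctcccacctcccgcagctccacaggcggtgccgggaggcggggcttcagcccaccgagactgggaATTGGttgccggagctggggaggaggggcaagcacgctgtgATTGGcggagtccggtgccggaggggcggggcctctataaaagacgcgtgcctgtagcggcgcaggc

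Libraries held 26759463 to 42914295 counted reads, so that 3 reads correspond to 0.0699 to 0.112 CPM, the reads of a gene scaled to the library total with TMM factors. Values of cell type markers and their sums use the library total alone. Null lung 1 and null liver 1 stood apart from the rest. The summed CPM of 6 striated muscle markers (Acta1, Ckm, Myh3, Myh8, Tnnt3 and Myl1, all found) was 13036 in null lung 1 and 25.0 to 65.6 in the other 5 lung libraries, and 5644 in null liver 1 and 1.89 to 4.25 in the other 5 liver libraries. The sum of 6 alveolar type 2 markers, which define the surfactant-making cells of lung, was 108 in null lung 1 and 22908 to 29264 in the other lungs, so the library labelled null lung 1 largely lacked them. The 6 hepatocyte markers summed to 147339 to 170901 CPM in WT and 147880 to 182494 CPM in null liver. Both null libraries numbered 1 stay in the first fit of each comparison, and the counts of calls are also given without them.

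**Figure D1:**
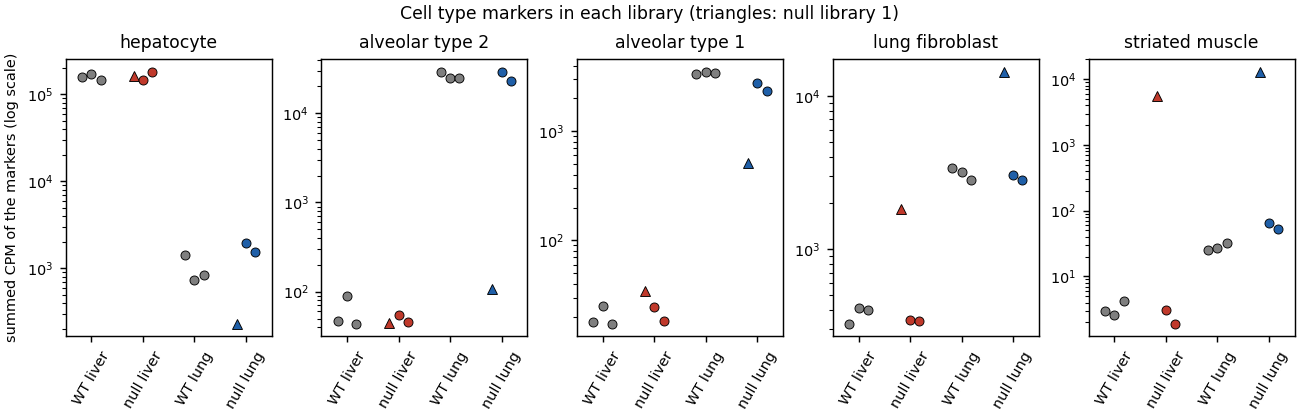
Summed CPM of cell type markers in each library on log axes, by genotype and tissue; each point is 1 library and triangles are the null libraries numbered 1. Null lung 1 is at 108 CPM of alveolar type 2 markers where the other lungs are at 22908 to 29264, and both null libraries numbered 1 are high in striated muscle markers.

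Counts of Man1a2 itself covered all its exons, of which only exon 2 is deleted, so they check the genotype only in part. Man1a2 was at 87.0, 54.2 and 68.5 CPM in WT liver and 53.7, 48.2 and 50.1 CPM in null liver, and at 105, 75.5 and 107 CPM in WT lung and 42.7, 49.7 and 50.2 CPM in null lung. All null libraries were below all WT libraries of their tissue, but neither difference passed the test over all genes with all libraries (adjusted p = 0.0809 in liver and 0.0614 in lung). Without the null library numbered 1 it was called in lung (log2 fold change −0.95, adjusted p = 0.00430) and not in liver (−0.50, adjusted p = 0.105).

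WT liver and WT lung started from different levels of the pathway. Levels between genes are given here per length, as CPM per kilobase of exon (mean ± SD, n = 3). In WT liver Hmgcs1, the synthase that feeds the mevalonate route, was the most abundant of the 36 at 46.5 ± 3.18, followed by the sterol sensor Insig1 at 39.5 ± 1.55, its relative Insig2 at 37.8 ± 2.71, the sterol isomerase Ebp at 37.8 ± 0.925 and the desaturase Sc5d at 36.4 ± 8.96. The values of the last 4 overlap within their SD. In WT lung the lysosomal cholesterol carrier Npc2 was far above the rest at 222 ± 7.83, followed by the kinase Pmvk at 45.4 ± 3.02. Hmgcs1 at 23.8 ± 4.53, Srebf2 at 21.7 ± 1.26 and Insig1 at 20.9 ± 5.15 came next in lung and overlapped each other within their SD.

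A difference was called where edgeR's quasi-likelihood test gave a Benjamini-Hochberg adjusted p under 0.05 over all genes tested and the fold was at least 1.2. Changes, including those given after "rose by" or "fell by", are fitted log2 values ± SE. By that rule 33 of the 36 genes differed between WT lung and WT liver, where 77.0% of all 15635 genes tested did. Higher in lung were 8 of them (39.8% of all genes) and lower in lung 25 (37.2%), and the median log2 fold change of the 36, lung over liver, was −0.96 beside 0.04 for all genes. The sterol exporters Abcg8 and Abcg5, which pump sterols into bile, were lowest in lung relative to liver, with log2 fold changes of −8.05 ± 0.21 and −5.86 ± 0.20 (fit ± SE). Abcg8 in WT lung was at 0.0717, 0.0790 and 0.132 CPM, at or near the level of 3 reads, so its fitted value rests on few reads. The esterifying enzyme Soat2 at −5.19 ± 0.19 and the sterol reductase Tm7sf2 at −4.41 ± 0.12 followed. Npc2 at 2.95 ± 0.15, Pmvk at 2.40 ± 0.11, Ggps1 at 1.13 ± 0.10, Srebf2 at 1.02 ± 0.11 and Npc1 at 0.77 ± 0.12 were higher in lung. With liver and lung of the same genotype and number treated as pairs, the same count of 33 was called.

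**Figure D2:**
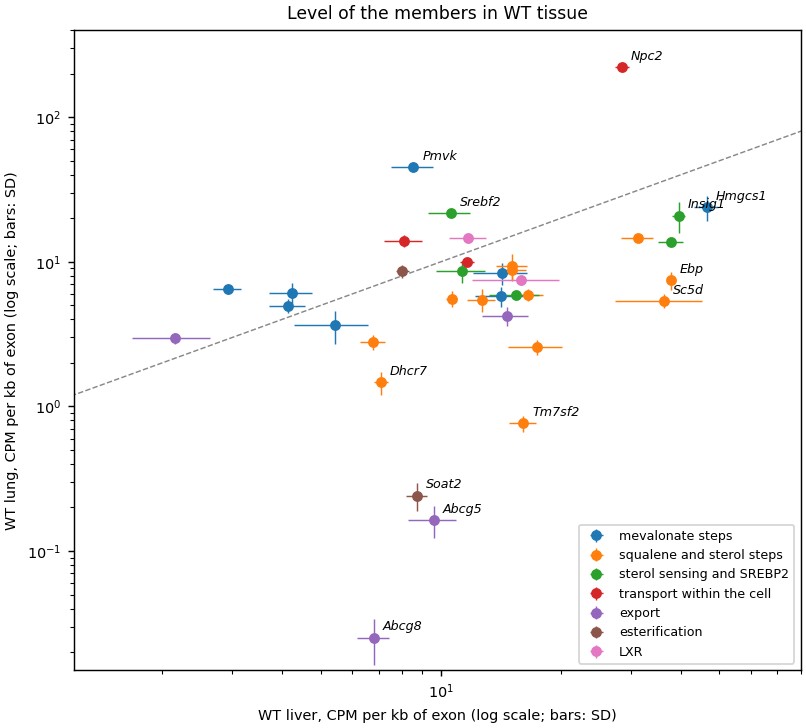
Level of each of the 36 genes in WT liver (horizontal) and WT lung (vertical), in CPM per kilobase of exon on log axes; points are means of 3 libraries, bars are SD, colours are pathway steps and the dashed line marks equal levels. Npc2 and Pmvk lie above the line, and Abcg5, Abcg8, Soat2 and Tm7sf2 lie furthest below it.

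In null liver the sensor Insig1, Srebf2 and 6 of the 12 enzymes of the squalene and sterol steps were higher than in WT, while Acat2 and Nr1h3 were lower and Hmgcs1, Idi1 and Sqle were not called. Of the 36 genes 16 were called between null and WT liver (44.4%), 14 higher and 2 lower, where 26.9% of all 14343 genes tested were called, 13.5% higher and 13.4% lower. The median log2 fold change of the 36 was 0.38 and that of all genes 0.02. Without null liver 1, 11 were called (10 higher, 1 lower), or 30.6% beside 23.8% of all genes. There were 7 without WT liver 3 (19.4%, beside 11.3% of all genes), 8 without WT liver 2 (22.2% beside 15.6%), 9 without WT liver 1 (25.0% beside 14.8%) and 9 without null liver 2 (25.0%, close to the 23.3% of all genes). Upper-quartile scaling of all libraries called 11, 8 higher and 3 lower, which at 30.6% was close to the 28.6% of all genes. Fitting all 12 libraries together called 5, all higher, which at 13.9% was close to the 11.9% of all genes. The direction of the 16 calls was that of the fit with all libraries in each of the 6 fits that left out 1 liver library, but only 7 of the 16 were called in all 6: Fdps, Lss, Msmo1, Srebf2, Insig1, Stard4 and Nr1h3.

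Insig1, which retains Scap and the SREBP proteins in the endoplasmic reticulum and is itself an SREBP2 target (chromosome 5, 28071363 to 28078662, mm10), differed most. It was at 117, 127 and 122 CPM in WT liver and 407, 481 and 432 CPM in null liver. Every null liver was over 3 times as high as any WT liver, and the log2 fold change was 1.85 ± 0.11 (adjusted p = 0.00164). Srebf2, the gene of SREBP2, was at 83.0, 65.7 and 79.4 CPM in WT liver and 133, 119 and 137 CPM in null liver. The groups did not overlap and the log2 fold change was 0.76 ± 0.13 (adjusted p = 0.00698). The escort Scap, Mylip (a ligase that marks lipoprotein receptors for degradation) and Insig2 were not called, with log2 fold changes of 0.38 ± 0.15, 0.44 ± 0.14 and −0.08 ± 0.11.

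In the mevalonate steps 2 of 8 genes were called (25%, close to the 26.9% of all genes), 1 in each direction. Without null liver 1 it was 1 of 8 (12.5%, beside 23.8% of all genes). Fdps, which makes farnesyl diphosphate (chromosome 3, 89093588 to 89101959, mm10), was at 70.1, 51.8 and 58.0 CPM in WT liver and 139, 135 and 112 CPM in null liver. On average null livers were about double the WT livers, without overlap, with a log2 fold change of 1.09 ± 0.15 (adjusted p = 0.00385). Fdps shares 1124 bases of exon on the same strand with the predicted gene Gm43738, so its reads could be split in counting. Acat2, which joins 2 acetyl-CoA molecules, was at 33.7, 41.7 and 32.6 CPM in WT liver and 19.9, 29.0 and 25.0 CPM in null liver. It was lower in every null liver than in any WT liver, with a log2 fold change of −0.55 ± 0.16 (adjusted p = 0.0437), and was not called without null liver 1 (adjusted p = 0.0838). Hmgcs1 was at 217, 226 and 198 CPM in WT liver and 188, 183 and 183 CPM in null liver. It was not called (−0.21 ± 0.10, adjusted p = 0.156). Among the genes with a promoter entry it alone matched the sterol regulatory element as searched. Fdps had no entry and was not searched. The null livers of Hmgcs1 all lay below the WT livers, while those of Fdps and Insig1 lay above. Idi1, the isomerase just before Fdps, and the kinase Mvk also gave small log2 fold changes, −0.17 ± 0.21 and 0.14 ± 0.25. The other 3, Pmvk, Mvd and Ggps1, ranged from 0.22 to 0.69 and were not called.

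In the squalene and sterol steps 6 of 12 genes were called (50%, beside 26.9% of all genes), all higher in null liver. Without null liver 1 it was 3 of 12 (25%, close to the 23.8% of all genes). Lss, the cyclase that closes squalene epoxide into lanosterol, was at 76.2, 75.5 and 66.7 CPM in WT liver and 189, 148 and 146 CPM in null liver. On average null livers were about double the WT livers, and the log2 fold change was 1.14 ± 0.13 (adjusted p = 0.00274). Dhcr7, the reductase of the last step of one branch, was at 41.8, 42.4 and 39.4 CPM in WT liver and 123, 86.0 and 59.2 CPM in null liver. It rose by 1.11 ± 0.23 (adjusted p = 0.0133), with null liver 1 the highest, and without that library by 0.83 ± 0.16 (adjusted p = 0.0109). Msmo1, a methyl sterol oxidase, was at 64.5, 67.8 and 64.1 CPM in WT liver and 113, 89.0 and 124 CPM in null liver. The WT livers lay within a few CPM of each other and below each null liver, with a log2 fold change of 0.73 ± 0.13 (adjusted p = 0.00891).

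Nsdhl, which acts with Msmo1 in removing methyl groups, was at 35.8, 39.3 and 33.3 CPM in WT liver and 72.6, 72.4 and 39.8 CPM in null liver. Null liver 3 was barely above the highest WT liver, and the log2 fold change was 0.76 ± 0.22 (adjusted p = 0.0363). Fdft1, which joins farnesyl units into squalene, was at 67.2, 77.5 and 65.4 CPM in WT liver and 133, 119 and 81.1 CPM in null liver. The log2 fold change was 0.66 ± 0.18 (adjusted p = 0.0299), and its exons share 774 bases with Ctsb on the other strand, which counting without strand would mix. Cyp51, the lanosterol demethylase, was at 64.1, 73.3 and 62.6 CPM in WT liver and 103, 95.7 and 78.8 CPM in null liver. The groups did not overlap and the log2 fold change was 0.47 ± 0.12 (adjusted p = 0.0265). Without null liver 1 these 3 genes were no longer called, with adjusted p of 0.0706 for Nsdhl, 0.0537 for Fdft1 and 0.0585 for Cyp51. Sqle, the epoxidase between Fdft1 and Lss and a rate-controlling enzyme, was at 82.8, 91.1 and 77.9 CPM in WT liver and 87.9, 103 and 71.9 CPM in null liver. It did not separate the genotypes (0.06 ± 0.14, adjusted p = 0.774), although the genes of the steps before and after it did. The other 5 genes of these steps ranged from −0.39 (Sc5d) to 0.29 (Lbr) and were not called.

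Of the carriers and exporters 4 of 7 were called, all higher in null liver, where 26.9% of all genes were called. Without null liver 1 it was 1 of 3 carriers and 2 of 4 exporters, beside 23.8% of all genes. Stard4, which moves cholesterol through the cytosol, was at 68.1, 63.0 and 64.2 CPM in WT liver and 107, 113 and 134 CPM in null liver. No null liver overlapped the WT range, and the fitted change was 0.85 ± 0.12 in log2 (adjusted p = 0.00417). Npc1, which exports cholesterol from lysosomes, was at 98.8, 80.1 and 95.5 CPM in WT liver and 138, 119.9 and 112 CPM in null liver. It was called at 0.43 ± 0.13 (adjusted p = 0.0451) but in none of the 6 fits that left out 1 liver library, and Npc2, its partner, was not called (0.25 ± 0.10). Abca1, which loads cholesterol onto apolipoprotein A-I, was at 129, 161 and 165 CPM in WT liver and 197, 199 and 271 CPM in null liver. The log2 fold change was 0.55 ± 0.17 (adjusted p = 0.0474). Abcg1, which passes cholesterol to high-density lipoprotein, was at 18.0, 11.7 and 17.6 CPM in WT liver and 29.8, 33.8 and 22.5 CPM in null liver and rose by 0.86 ± 0.22 (adjusted p = 0.0250). The bile exporters Abcg5 and Abcg8 were not called (−0.23 ± 0.26 and 0.52 ± 0.31), and null livers of Abcg8 ran from 18.7 to 48.9 CPM.

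Soat2, which esterifies cholesterol in hepatocytes, was at 18.6, 18.5 and 20.6 CPM in WT liver and 23.8, 29.0 and 26.0 CPM in null liver. It rose by 0.45 ± 0.12 (adjusted p = 0.0313), and Soat1, its widely expressed relative, was not called (−0.31 ± 0.12, adjusted p = 0.0928). Nr1h3, the gene of LXR alpha, was at 35.2, 51.2 and 33.3 CPM in WT liver and 18.1, 23.2 and 13.7 CPM in null liver. It fell in every null liver below every WT liver, with a log2 fold change of −1.12 ± 0.23 (adjusted p = 0.0120), while its target genes Abca1 and Abcg1 rose. Nr1h2, the gene of LXR beta, was not called (0.27 ± 0.11). Beside these results, 4 adrenal cortex markers summed to 42.8 to 91.3 CPM in WT and 170.0 to 220.1 CPM in null liver. That sum rested on 1 gene, Hsd3b1. Cyp11b1 was at 0 in all libraries, Cyp11a1 was under 0.5 CPM in all livers and Star was at 1.38 to 1.92 CPM. The sums of endothelial, macrophage and neutrophil markers overlapped between WT and null liver. Pecam1 and Cdh5 of endothelium, Adgre1 of macrophages and Mpo of neutrophils were called higher in null liver. Their log2 fold changes were 0.52, 0.49, 0.54 and 0.59. Tcf21 of fibroblasts was called lower, at −1.06. The other markers of these 4 cell types were not called. The part of all these markers in the result was not tested.

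**Figure D3:**
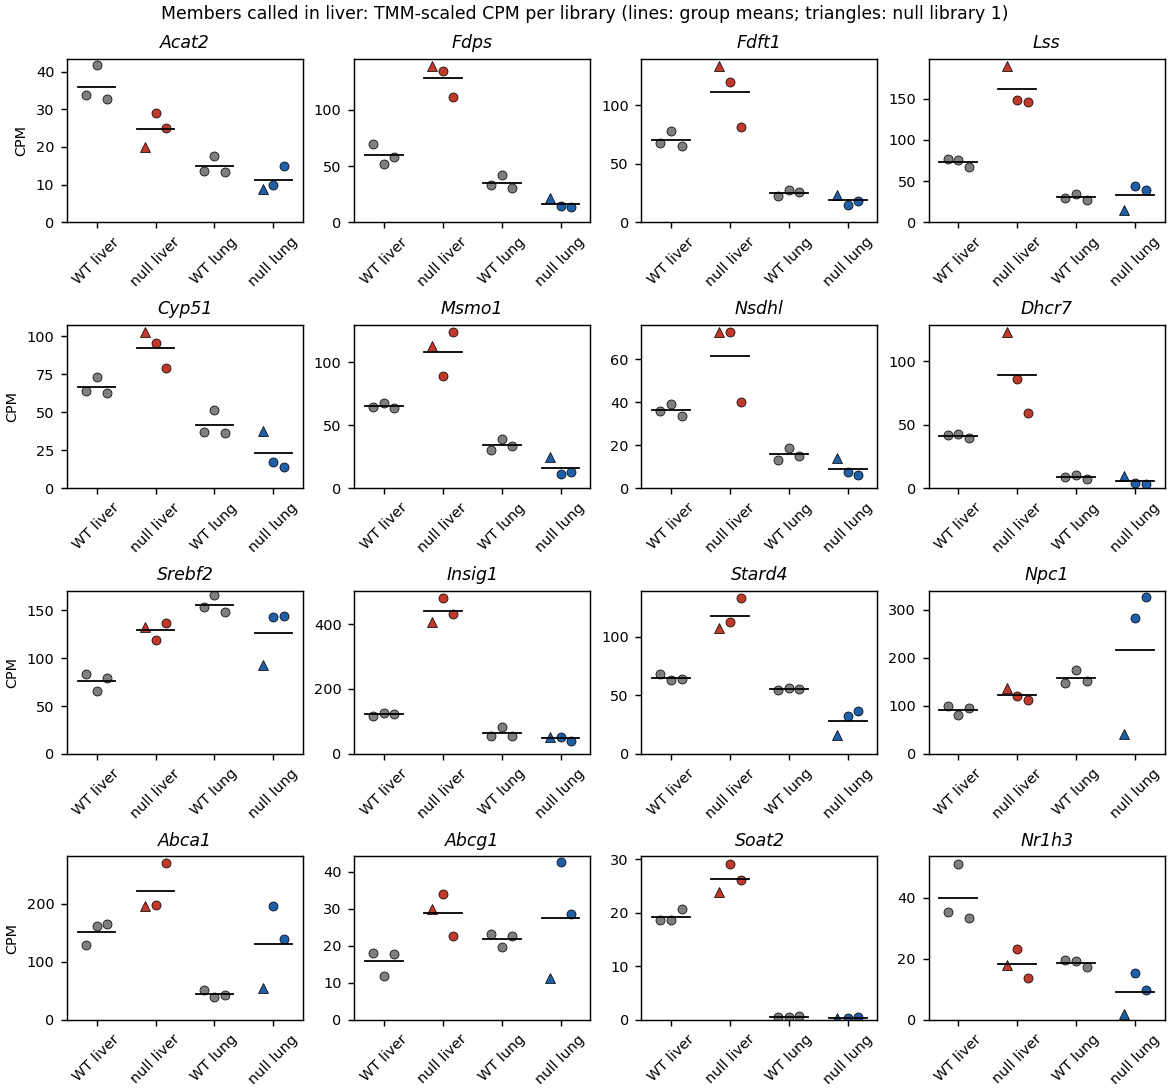
TMM-scaled CPM of the 16 genes called in liver, on linear axes from 0; points are libraries, lines are group means and triangles are the null libraries numbered 1. Insig1 rises from 117 to 127 CPM in WT liver to 407 to 481 CPM in null liver, and Acat2 and Nr1h3 are the only 2 that fall.

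In lung no gene of the 36 was called with all 6 libraries, and 27 were called without null lung 1. With all 6 libraries 35 of the 36 genes could be tested, since Abcg8 was too low, and none passed the adjusted threshold of edgeR, where 0.327% of all 15591 genes tested did. At an unadjusted p under 0.05 there were 14, beside 25.0% of all genes. DESeq2 called 11 of the 35 (31.4%; 2 higher, 9 lower) beside 15.7% of all genes, and limma voom with quality weights called 22 (62.9%; 5 higher, 17 lower) beside 31.9%. The median log2 fold change was −0.43, beside 0.06 for all genes. Leaving out null lung 1 gave 27 called of 35 tested (77.1%), 8 higher and 19 lower, where 37.0% of all 15885 genes were called, 18.0% higher and 19.0% lower. Leaving out any other lung library left none called. The lung values that follow are from the fit without null lung 1, with 2 null libraries, and genes not called in liver are named after their values were seen.

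Most synthesis genes were lower in those 2 null lungs. Of the 20 enzymes of synthesis 17 were called (85%, beside 37.0% of all genes), 14 lower and 3 higher. The median log2 fold change of the 20 was −0.73 beside −0.01 for all genes. Idi1 was at 9.59, 16.1 and 12.7 CPM in WT lung and 6.44, 3.31 and 3.63 CPM in null lung. It fell most of the 36, with a log2 fold change of −1.89 ± 0.25 (adjusted p = 0.00190). Sqle was at 41.9, 57.3 and 46.6 CPM in WT lung and 31.0, 14.0 and 13.5 CPM in null lung and fell by 1.83 ± 0.16 (adjusted p = 0.000621). For both genes null lung 1 lay between the other null libraries and the WT libraries.

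The genes that rose in liver and fell in lung were Fdps, Fdft1, Cyp51, Msmo1, Nsdhl, Dhcr7 and Stard4, 7 of the 12 called in both tissues when null liver 1 was kept. Without null liver 1 as well, 8 were called in both, and 4 of them, Fdps, Msmo1, Dhcr7 and Stard4, rose in liver and fell in lung. The share of all genes called in both tissues, or in opposite directions, was not counted, so these counts describe only the genes named. Of all genes tested, 26.9% were called in liver with all libraries and 37.0% in lung without null lung 1, which does not give that share. Fdps was at 33.5, 42.0 and 30.2 CPM in WT lung and 21.2, 14.5 and 13.9 CPM in null lung, all 3 null lungs below the WT lungs, and fell by 1.32 ± 0.16 (adjusted p = 0.00151). Msmo1 was at 30.5, 38.8 and 33.3 CPM in WT lung and 24.7, 11.5 and 12.6 CPM in null lung, again without overlap, and fell by 1.51 ± 0.15 (adjusted p = 0.000782). Both thus separated the genotypes in lung with null lung 1 included, in the direction opposite to liver. Cyp51 was at 37.2, 51.1 and 36.1 CPM in WT lung and 37.4, 17.3 and 14.1 CPM in null lung and fell by 1.41 ± 0.19 (adjusted p = 0.00185). Nsdhl was at 13.1, 18.7 and 15.1 CPM in WT lung and 13.9, 7.25 and 5.97 CPM in null lung and fell by 1.25 ± 0.20 (adjusted p = 0.00336). Null lung 1 lay within the WT range for both Cyp51 and Nsdhl.

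Dhcr7 was at 8.39, 10.2 and 7.08 CPM in WT lung and 9.07, 4.06 and 3.06 CPM in null lung and fell by 1.27 ± 0.22 (adjusted p = 0.00507). Fdft1 was at 22.5, 27.4 and 25.5 CPM in WT lung and 22.9, 14.7 and 18.2 CPM in null lung and fell by 0.61 ± 0.15 (adjusted p = 0.0178). Stard4 was at 54.8, 56.6 and 55.0 CPM in WT lung and 16.2, 32.4 and 36.6 CPM in null lung and fell by 0.69 ± 0.11 (adjusted p = 0.00321). Stard4 was lower in all 3 null lungs, lowest in null lung 1, whereas null lung 1 had the highest null value of Dhcr7 and of Fdft1. The kinase Mvk fell as well, with a log2 fold change of −1.17 ± 0.17. Among the later sterol enzymes Hsd17b7, a ketosteroid reductase, fell by 0.76 ± 0.16, although with null lung 1 kept its log2 fold change was 0.10, and Ebp and Sc5d fell by 0.65 ± 0.18 (adjusted p = 0.0269) and 0.54 ± 0.13 (adjusted p = 0.0176). Hmgcs1 was at 85.8, 125 and 118 CPM in WT lung and 74.6, 46.6 and 63.1 CPM in null lung, with no overlap, and fell as well (adjusted p = 0.00828).

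Lss moved apart from its neighbours. It was at 28.8, 34.3 and 27.2 CPM in WT lung and 15.4, 44.1 and 39.4 CPM in null lung, where null lung 1 was below and the other 2 null lungs above the WT lungs, and without null lung 1 it rose by 0.46 ± 0.13 (adjusted p = 0.0268). Pmvk, the kinase between Mvk and Mvd, was at 83.4, 73.4 and 76.3 CPM in WT lung and 12.5, 149 and 148 CPM in null lung. It rose by 0.93 ± 0.09 (adjusted p = 0.000897), while Mvk and Mvd, the steps before and after it, fell. The sterol reductase Lbr rose by 0.39 ± 0.09, and Tm7sf2, which catalyses the same reaction, was not called (0.55 ± 0.21, adjusted p = 0.0746).

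Of the sensing genes, Srebf2 was at 153, 166 and 148 CPM in WT lung and 93.4, 143 and 145 CPM in null lung and was not called (−0.12 ± 0.10, adjusted p = 0.364). Insig1 was at 55.2, 82.9 and 55.6 CPM in WT lung and 50.6, 52.3 and 40.8 CPM in null lung and was not called either (−0.48 ± 0.20, adjusted p = 0.101). The 3 null lungs lay below the WT lungs for both genes, which in liver lay above. Scap and Insig2 fell, with log2 fold changes of −0.33 ± 0.10 and −0.53 ± 0.15.

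The exporters Abca1 and Abcg1, the lysosomal carriers and Mylip rose in lung. Abca1 was at 50.9, 38.4 and 41.9 CPM in WT lung and 54.5, 196 and 139.6 CPM in null lung and rose by 1.93 ± 0.16 (adjusted p = 0.000603). Mylip, whose promoter is printed above, was at 32.9, 27.2 and 23.6 CPM in WT lung and 47.2, 92.7 and 94.2 CPM in null lung and rose by 1.74 ± 0.14 (adjusted p = 0.000588). Both were above all WT lungs in every null lung, null lung 1 least. Abcg1 was at 23.1, 19.6 and 22.5 CPM in WT lung and 11.2, 42.5 and 28.4 CPM in null lung and rose by 0.70 ± 0.17 (adjusted p = 0.0169). Npc1 was at 148, 175 and 151 CPM in WT lung and 42.2, 282 and 326 CPM in null lung and rose by 0.94 ± 0.12 (adjusted p = 0.00181), and Npc2 rose by 0.45 ± 0.10. Null lung 1 was below the WT lungs for Abcg1, Npc1 and Npc2, the opposite of the other 2 null lungs.

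Nr1h3 was at 19.6, 19.3 and 17.3 CPM in WT lung and 1.83, 15.4 and 9.87 CPM in null lung and fell by 0.58 ± 0.19 (adjusted p = 0.0473), the 1 gene called lower in both tissues, and Soat1 fell by 0.54 ± 0.16. Acat2 was at 13.5, 17.5 and 13.4 CPM in WT lung and 8.87, 9.96 and 14.9 CPM in null lung and was not called (−0.26 ± 0.22, adjusted p = 0.386). Soat2 was at 0.412, 0.553 and 0.64 CPM in WT lung and 0.228, 0.343 and 0.479 CPM in null lung, under 1 CPM in every library, and was not called. Lss, Npc1, Abca1 and Abcg1 were called higher in both tissues, Npc1 in liver only when null liver 1 was kept.

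Marker sums of the lungs other than null lung 1 stand beside these results. All 6 alveolar type 2 markers were found. Their sum was 24649 to 28899 CPM in WT and 22908 to 29264 CPM in the 2 null lungs, which overlap. Within that sum Sftpa1 was higher, at 2128 to 2238 CPM in WT and 2692 and 2794 CPM in the 2 null lungs. Sftpb was higher as well, at 2970 to 3159 and 3353 and 3176 CPM. Sftpd was lower, at 1130 to 1331 and 873 and 915 CPM, and the other type 2 markers overlapped. The 5 alveolar type 1 markers summed to 3375 to 3515 CPM in WT and 2316 to 2790 CPM in null lung. The 5 fibroblast markers summed to 2818 to 3390 and 2841 to 3030 CPM. Of these, Pdgfra was higher, at 127 to 151 CPM in WT and 189 and 195 CPM in the 2 null lungs. Tcf21 was lower, at 265 to 319 and 130 and 129 CPM, and the collagens overlapped. The hepatocyte markers summed to 735 to 1436 CPM in WT and 1536 to 1986 CPM in null lung, and the muscle markers to 25.0 to 32.5 and 53.4 to 65.6 CPM. The 6 neutrophil markers summed to 244 to 408 CPM in WT and 564 to 614 CPM in null lung. The 5 bile duct markers, which are epithelial genes, summed to 986 to 1256 and 713 to 873 CPM. Among them Krt7, Krt19 and Spp1 were lower in null lung without overlap, and Sox9 overlapped. Epcam went the other way, at 136 to 166 CPM in WT and 207 and 222 CPM in the 2 null lungs. The sums of the alveolar type 1, hepatocyte, muscle, neutrophil and bile duct markers thus did not overlap between the genotypes. The hepatocyte sum rested on Trf, at 926, 705 and 805 CPM in WT and 1519 and 1367 CPM in the 2 null lungs. Every other hepatocyte marker overlapped. So did Ager of alveolar type 1, at 1454 to 1553 CPM in WT and 1642 and 1217 CPM in null lung. Ngp, Ltf and Camp of the neutrophil markers and Acta1 of the muscle markers also overlapped. The part of these markers in the result was not tested.

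**Figure D4:**
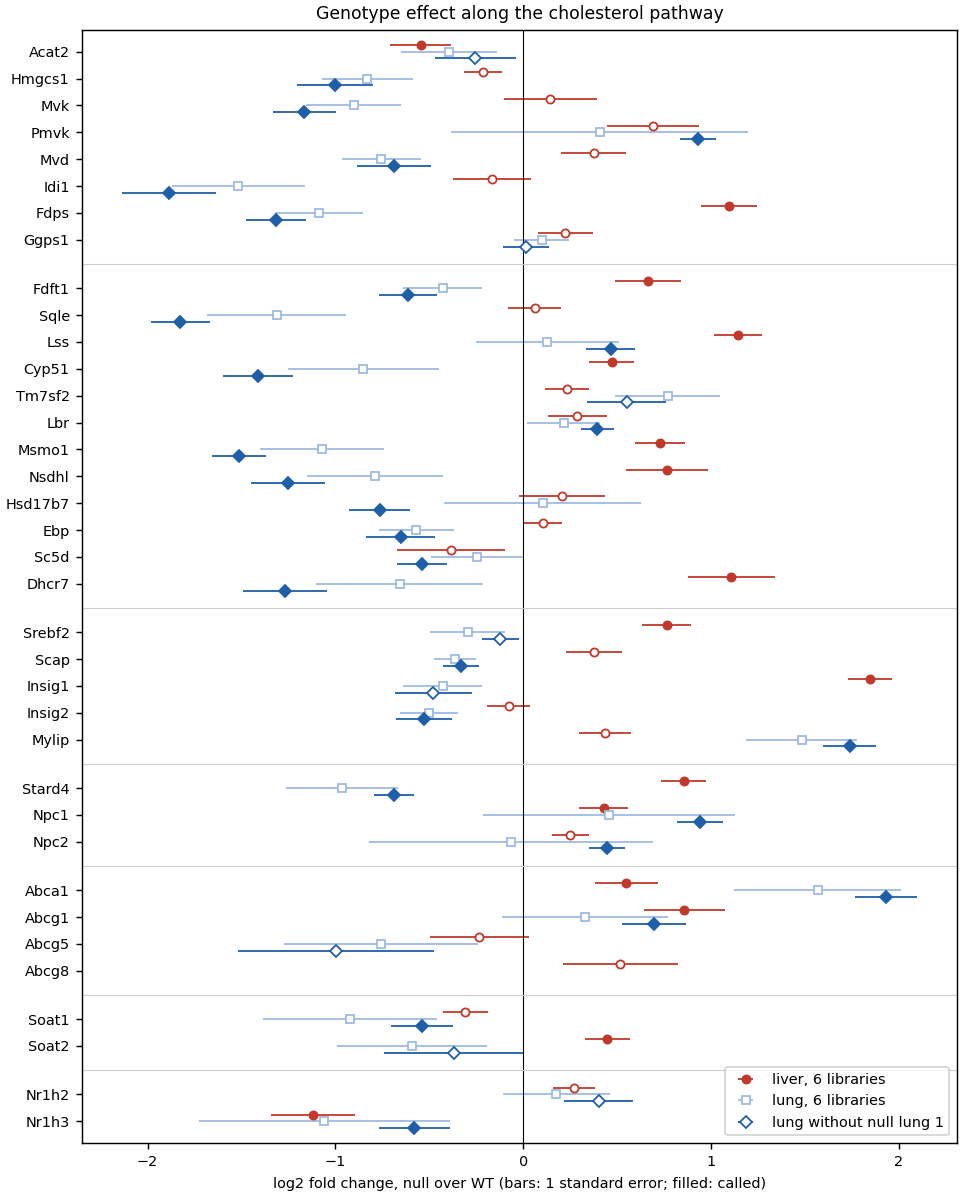
Log2 fold change, null over WT, of the 36 genes in pathway order (top to bottom: mevalonate, squalene and sterol, sensing, transport, export, esterification, LXR); bars are 1 standard error and filled symbols are called. Red is liver with 6 libraries, pale blue lung with 6 libraries and dark blue lung without null lung 1; Fdps, Msmo1, Nsdhl and Dhcr7 lie right of 0 in liver and left of it in lung, and Abca1 lies right in both.

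The difference itself between lung and liver was tested as the interaction of genotype and tissue. With all 12 libraries 2 of the 36 genes were called, Insig1 with a lung minus liver difference of −2.28 ± 0.25 (adjusted p = 0.0189) and Fdps with −2.19 ± 0.28 (adjusted p = 0.0189), where 0.371% of all 16155 genes were called. Neither gene was called without WT liver 2, WT liver 3, WT lung 1 or WT lung 3, and 1 was called without null liver 1 or WT lung 2. The median of the 36 was −0.62 and that of all genes 0.01, and 29 of the 36 were below 0, beside 7934 of all 16155 genes. Expression deviated together in liver and lung of the same genotype and number, in null also between some unlike numbers. The same-numbered libraries were also fitted as pairs, which the labels do not give. With the pairs and all libraries none was called and neither was any of the other genes (0%), with 18 of the 36 and 2224 of all genes at an unadjusted p under 0.05 and an adjusted p of 0.105 for Insig1.

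Both null libraries numbered 1 carry muscle markers, and without them the paired fit called 16 of the 36 (44.4%), 14 lower and 2 higher in lung, where 6.13% of all 16216 genes were called. Without the pairing 15 were called beside 5.18% of all genes. Leaving out only null lung 1 called 14, 2 higher in lung beside 2.29% of all genes and 12 lower beside 2.71%. In the paired fit without both libraries the largest differences, lung minus liver, were those of Insig1 (−2.37 ± 0.21, adjusted p = 0.00153), Fdps (−2.35 ± 0.24, adjusted p = 0.00229), Msmo1 (−2.20 ± 0.18, adjusted p = 0.000740) and Dhcr7 (−2.07 ± 0.19, adjusted p = 0.00165). Stard4 differed by −1.61 ± 0.15, Srebf2 by −0.88 ± 0.19, Cyp51 by −1.79 ± 0.17 and Nsdhl by −1.83 ± 0.23. Sqle and Idi1, which were not called in liver, also differed, by −1.86 ± 0.20 and −1.82 ± 0.25. The other 4 called lower in lung were Hsd17b7 (−1.16 ± 0.25), Fdft1 (−1.12 ± 0.25), Mvk (−0.99 ± 0.23) and Ebp (−0.70 ± 0.17). Mylip (1.39 ± 0.15) and Abca1 (1.30 ± 0.30) were the 2 whose null effect was higher in lung. For Npc1, Abcg1, Nr1h3, Lss and Acat2 the difference was not called, at 0.59 ± 0.22, −0.16 ± 0.19, 0.52 ± 0.21, −0.55 ± 0.16 and 0.13 ± 0.24, which does not show that the tissues were alike.

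By range alone, with every library kept, 6 of the 36 genes had all null livers above all WT livers and all null lungs below all WT lungs: Mvd, Fdps, Msmo1, Srebf2, Insig1 and Stard4. Mylip and Abca1 were above in both tissues, and Hmgcs1, Soat1 and Nr1h3 were below in both. How many of all genes showed these patterns was not counted, so the ranges describe only the genes named.

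**Figure D5:**
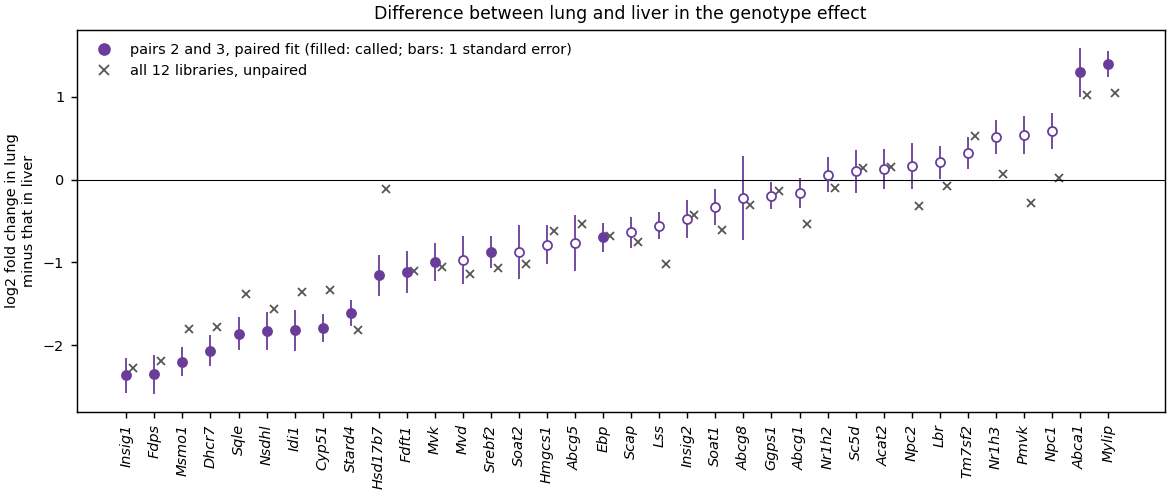
Lung minus liver difference of the null over WT log2 fold change for the 36 genes, ordered by value. Circles are the paired fit without both null libraries numbered 1 (bars 1 standard error, filled where called) and crosses the unpaired fit of all 12 libraries; Insig1 and Fdps lie lowest in both fits.

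Of 36 further genes of the same biology, chosen by function, 33 were tested in liver and 13 called (39.4%), 8 higher and 5 lower, beside 26.9% of all genes. Without null liver 1 there were 10 (30.3%), 7 higher and 3 lower, beside 23.8%. Among those with the smallest p were Srebf1, the gene of the sister factor SREBP1, with a log2 fold change of 1.33 (adjusted p = 0.00220), the sterol carriers Gramd1b at 1.17 (adjusted p = 0.00935) and Gramd1a at 0.75 (adjusted p = 0.00953), the lipoprotein receptor Scarb1 at 0.60 (adjusted p = 0.00991) and Pdss1 of ubiquinone synthesis at −0.98 (adjusted p = 0.0152). Srebf1 was at 53.2, 47.6 and 59.0 CPM in WT liver and 133, 151 and 118 CPM in null liver, with no overlap. In lung without null lung 1, 16 of the 36 were called (44.4%, beside 37.0% of all genes), 11 higher and 5 lower, among them Srebf1 at 1.19, Scarb1 at 1.03 and Gramd1a at 1.02. With all 6 lungs 1 was called, the farnesyltransferase subunit Fntb at −0.96 (adjusted p = 0.04997). In the interaction of genotype and tissue none of these further genes was called with all 12 libraries, beside 0.371% of all genes. The paired fit without both null libraries numbered 1 called 2 of them (5.56%), both lower in lung, close to the 6.13% of all genes.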

How the data were processed

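Per the labels and the study's methods, poly(A) RNA was made into stranded TruSeq libraries and sequenced as paired reads of 75 bases. The authors deposited raw counts of reads per gene symbol, 1 file for each of 12 libraries. The submitters' processing notes name FastQC, STAR 2.5.2a, DESeq2 and the mm10 build; the counting program, its strand setting and the annotation are not given in the sources used here. Without the strand setting, reads of genes that overlap on opposite strands may be mixed; exons of 14 of the 36 genes overlap another gene in GENCODE M21.

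Counts were used as deposited. Genes were filtered with filterByExpr, scaled by TMM and tested with edgeR 4.0.16 (quasi-likelihood F test, Benjamini-Hochberg adjustment over all genes tested) in R 4.3.3, within each tissue for genotype and over 12 libraries for the interaction. Fold changes are on the log2 scale ± SE, and CPM values use TMM factors of all 12 libraries, except those of cell type markers, which are per library total. A gene was called at an adjusted p under 0.05 with a fold of 1.2 or more, as in the study. DESeq2 1.42.0 and limma 3.58.1 (voom with quality weights) were alternatives. The unpaired fits with all libraries were tested on simulated counts with a single fixed dispersion and no library standing apart. The paired fits and those that leave out a library were not tested in this way. The genes, the further gene list, the marker lists and the tests were chosen with earlier results of these data known. Named were all genes of the 36 called in liver, lung or the interaction, the 6 further genes with the smallest p in liver, of which 1 is not reported here, and Man1a2. The fits without null libraries numbered 1 were chosen for the text after their markers were seen.

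The study's methods name 3 pups per genotype, and the labels do not link libraries to pups. Same-numbered liver and lung of 1 genotype deviated together, with correlations of 0.110 to 0.160 in WT and 0.334 to 0.424 in null, all over 0.1, so they were treated as pairs. Unlike-numbered WT libraries were at −0.121 to −0.0237. In null, however, liver 2 with lung 3 (0.222) and liver 3 with lung 2 (0.161) were over 0.1 as well. The null correlations therefore do not show which libraries share a pup. Same-numbered WT and null libraries share only a number. No 2 libraries of a group agreed within sampling noise (lowest chi-square per gene 12.8).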

Additional observations from a re-analysis of the deposited data

Results flagged for a closer look

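The genotype effect of 2 genes differed between the tissues in the interaction test with all 12 libraries (edgeR's quasi-likelihood test, Benjamini-Hochberg adjusted). The lung minus liver difference of the log2 fold change was −2.19 for Fdps (adjusted p = 0.0189) and −2.28 for Insig1 (adjusted p = 0.0189). Without null lung 1 and null liver 1, in the paired fit, they were −2.35 (adjusted p = 0.00229) and −2.37 (adjusted p = 0.00153). With the pairs and all 12 libraries both had an adjusted p of 0.105. Groups of 3 libraries were too small to test for single outlying values.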

How the results depend on the processing

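The 16 liver calls (26.9% of all genes called) became 5 with all 12 libraries in 1 fit (11.9%), 19 with DESeq2 (31.8%), 17 with its size factors (27.0%) and 18 with voom weights (29.3%). Upper-quartile scaling, which moved the median of all genes from 0.02 to −0.09, called 11 (8 higher, 3 lower). With 1 liver library left out there were 7 to 15, the lowest without WT liver 3, and 9 without WT liver 1, 8 without WT liver 2, 9 without null liver 2 and 11 without null liver 1. In lung, where none was called, DESeq2 called 11 (15.7% of all genes), voom weights 22 (31.9%), the fit of all 12 libraries 13 (14.1%), and the leave-one-out fits 0 to 27, the latter without null lung 1. The direction of Hsd17b7 in lung turned from 0.10 to −0.73 with voom weights and −0.76 without null lung 1, and that of Npc2 from −0.07 to 0.45 without null lung 1; over all leave-one-out fits they ran up to 0.39 and down to −0.49.

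For the interaction, DESeq2 called 10 genes (3.93% of all genes), voom weights 14 (4.02%), the fit with the replicate block 0, the fit without both null libraries numbered 1 15 and the same fit with the replicate block 16. Leaving out 1 library gave 0 to 14. Without WT liver 2, WT liver 3, WT lung 1 or WT lung 3 there were 0, without null liver 1 or WT lung 2 there was 1, and without null lung 1 there were 14. The number of the labels as a block within a tissue gave 15 calls in liver and 0 in lung; same-numbered WT and null libraries were no pairs (correlations −0.10 to 0.12). The cause of these changes was not tested, except that fewer libraries leave fewer degrees of freedom. In WT lung against WT liver every alternative stayed within 1.5 times of 33. The promoter counts were 1, 23 and 5 windows when restricted to the bases before the start. A fold change of genes under 1 CPM in lung (Abcg5, Abcg8, Soat2) is limited by depth.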
